A study of Homo sapiens with 6 samples.

Results

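CXCR4, ACKR3 and CXCL12 make up the CXCL12 chemokine axis, and their 3 rows were taken by symbol from a table of 58830 genes measured by RNA-seq. The samples were 6 libraries of total RNA from HuES8, an established human embryonic stem cell line, after differentiation to definitive endoderm, the germ layer that gives rise to gut, liver and pancreas. Of these, 3 were wild type (DE) and 3 carried a knockdown of GATA6-AS1, the RNA transcribed antisense to the endoderm factor GATA6 (KD). Both groups had received 100 ng/mL Activin A with 2.5 µM CHIR, an inhibitor of GSK3, on day 1 and Activin A without CHIR on the following 2 days, in DMEM-F12 with 0.2% BSA. The sources used here do not say how the knockdown was made, whether DE cells carried a control construct or whether replicates were separate cultures, so the spread behind each p-value is that between these libraries and may be technical.

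CXCL12, also called SDF-1, is a secreted chemokine that steers migrating cells along its gradient. CXCR4 is its signalling receptor, which couples to inhibitory G proteins and is widely used as a surface marker to sort definitive endoderm from stem cell cultures. ACKR3, formerly CXCR7, binds the same ligand without classical G protein signalling, recruits arrestins and takes CXCL12 up for degradation, which lowers its level outside the cell.

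In the GENCODE 29 annotation of GRCh38, CXCR4 (ENSG00000121966.6) occupies bases 136114349 to 136118165 of chromosome 2 (minus strand), and ACKR3 (ENSG00000144476.5) bases 236567787 to 236582358 of the same chromosome (plus strand). CXCL12 (ENSG00000107562.16) occupies bases 44370165 to 44386493 of chromosome 10 (minus strand). All 3 genes code for proteins, and 0 of them are overlapped by another annotated gene on either strand. RefSeq promoter windows (GRCh38.p14) were at hand for 2 of the 3 genes, CXCR4 and CXCL12. They are shown because the pair encodes a receptor and its ligand whose RNA levels lay on opposite sides between the groups. The CXCR4 sequence is chr2:136118166-136118399, which ends where the first annotated exon of GENCODE begins, and the CXCL12 sequence is chr10:44385098-44385347, which lies inside the span of the GENCODE gene. Both are read 5′ to 3′ on the minus strand. Capitals mark matches, on either strand, to the motifs named after them, so a GC box on the other strand reads CCGCCC.
CXCR4: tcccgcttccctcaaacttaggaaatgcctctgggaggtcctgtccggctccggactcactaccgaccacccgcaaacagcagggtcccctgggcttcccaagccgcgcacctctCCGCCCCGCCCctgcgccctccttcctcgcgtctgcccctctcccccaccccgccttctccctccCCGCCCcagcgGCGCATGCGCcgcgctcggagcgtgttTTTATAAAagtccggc
CXCL12: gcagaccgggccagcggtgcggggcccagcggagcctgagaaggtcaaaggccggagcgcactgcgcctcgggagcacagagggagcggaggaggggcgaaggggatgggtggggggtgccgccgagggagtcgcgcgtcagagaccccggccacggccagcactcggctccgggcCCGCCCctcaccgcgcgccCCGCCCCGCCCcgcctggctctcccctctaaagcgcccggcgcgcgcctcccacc

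The 250 bases before each start were searched on both strands for 8 motifs. The CXCR4 window at the start of the gene held the TATA box letters TATAAA beginning 32 and 30 bases before the RefSeq start, where the match on one strand overlaps that on the other. It also held the NRF1 letters GCATGCGC beginning at 59 and 57 bases, again overlapping on both strands, and the GC box letters GGGCGG at 135, 130 and 70 bases, the first pair sharing a base. The CXCL12 window held GGGCGG at 74, 55 and 50 bases, the last pair sharing a base, and neither of the other letters marked in CXCR4. Of 35116 RefSeq windows of this length, 10.7% held TATAAA, 2.63% held GCATGCGC and 42.6% held GGGCGG. The letters AGATAA for GATA factors (9.17% of windows), TGTTTAC for FOXA factors (2.98%), ATTGTT for SOX factors (8.98%), GGTGTGA for T-box factors (2.76%) and AATCCACA for FOXH1 (0.709%) were not found in the CXCL12 window or in any of the 3 CXCR4 windows, 1 for each listed start.

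The deposited values were TPM, a transcript abundance scaled for the length of the gene and the sum of the library, so levels set side by side between genes depend on the length taken for each. Over the 37138 rows matched to a single annotated gene, the steps between low values gave an estimated 18640821 to 24510594 reads per library. The members stood for 582 to 3993 estimated reads per library. Transcripts of mitochondrial DNA took 24.6% to 38.04% of all TPM, with replicate 3 highest in both groups. The knocked-down GATA6-AS1 measured 313 to 421 TPM in DE libraries against 126 to 180 TPM in KD libraries (log2 change -1.26, limma adjusted p = 0.0128, lost without DE replicate 1 at 0.0717 or KD replicate 2 at 0.0612). GATA6 itself did not pass (346 ± 52.8 and 218 ± 30.6 TPM, limma adjusted p = 0.0648, with the block 0.00500). Means are given ± SD over 3 libraries a group throughout. Of 17711 genes tested by limma on log2(TPM + 1), 3.27% passed an adjusted p of 0.05, 1.5% lower and 1.77% higher in KD. With the replicate number as a block, 12.5% passed, with voom on estimated reads 12.6% of 14681 genes, and 15.4% had an unadjusted limma p under 0.05. The 3 DE and the 3 KD values did not overlap for 20.8% of the tested genes.

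Both receptors of CXCL12 fell to about the same share of their wild-type level in the knockdown, while the RNA of the ligand was higher in every KD library than in any DE library. Mean CXCR4 was 0.503 and mean ACKR3 0.485 of the DE mean, and mean CXCL12 was 1.45 times the DE mean. Of the 3 genes, 2 passed the test over all genes, both lower, and with the replicate block 3 passed, against the shares of all genes given above. The groups did not overlap for any of the 3.

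**Figure D1:**
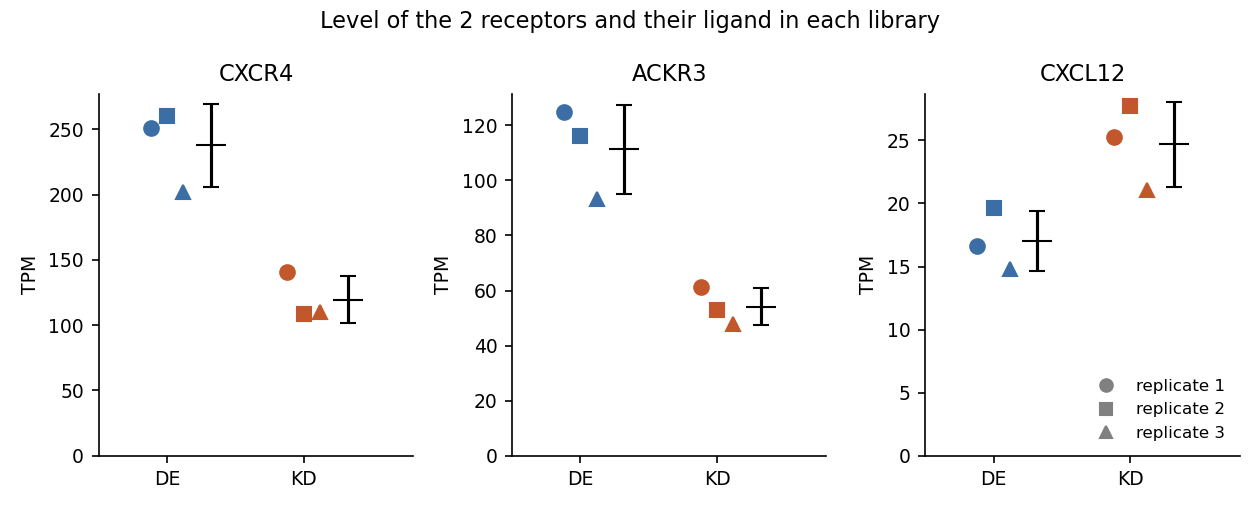
TPM of CXCR4, ACKR3 and CXCL12 (vertical axes from 0) in the 3 DE and 3 KD libraries, with a symbol for each replicate number and the mean ± SD in black. The KD points of both receptors lie below all DE points, at most 141 TPM for CXCR4 and 61.2 TPM for ACKR3, and those of CXCL12 lie above all DE points, from 21.1 TPM upward.

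CXCR4, the signalling receptor, had 251, 260.2 and 202 TPM in DE replicates 1 to 3 and 141, 108 and 109.9 TPM in KD replicates 1 to 3. DE replicate 3 was the lowest of its group and KD replicate 1 the highest, and a wide gap separated the groups. The means were 238 ± 31.4 for DE and 119.6 ± 18.3 TPM for KD (SD, n = 3 each). The log2 change was -0.99 (SE 0.145, 95% interval -1.33 to -0.65), and CXCR4 fell (limma adjusted p = 0.0173 over all genes). In order of TPM among the tested genes, CXCR4 stood between places 399 and 447 in the DE libraries and between 880 and 1221 in the KD libraries. The call was lost without DE replicate 1 (limma adjusted p = 0.0953), DE replicate 2 (0.0645), KD replicate 2 (0.0970) or KD replicate 3 (0.0538), with fewer libraries in each fit, and with no filter on low values (0.0515).

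ACKR3, the scavenging receptor, had 125, 116 and 93.3 TPM in DE replicates 1 to 3 and 61.2, 53.04 and 47.9 TPM in KD replicates 1 to 3. Replicate 3 was lowest in both groups, and the highest KD value lay well under the lowest DE value. The means were 111 ± 16.2 for DE and 54.04 ± 6.70 TPM for KD (SD, n = 3), a log2 change of -1.03 (SE 0.143, 95% interval -1.36 to -0.69). ACKR3 fell as well (limma adjusted p = 0.0147 over all genes), and did not pass without DE replicate 1 (0.0838), DE replicate 2 (0.0583) or KD replicate 2 (0.0874). Its place in the order of TPM was 1004 to 1204 in DE and 2466 to 2889 in KD libraries.

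CXCL12, the ligand, had 16.7, 19.6 and 14.8 TPM in DE replicates 1 to 3 and 25.2, 27.7 and 21.1 TPM in KD replicates 1 to 3. Replicate 2 was highest and replicate 3 lowest in both groups, and the lowest KD library was only slightly above the highest DE library. The means were 17.03 ± 2.41 for DE and 24.7 ± 3.36 TPM for KD (SD, n = 3), a log2 change of 0.51 (SE 0.147, 95% interval 0.17 to 0.86). CXCL12 did not pass over all genes (limma adjusted p = 0.132). It passed with the replicate block (limma adjusted p = 0.00776), with quantile normalization (0.00981), median-ratio scaling (0.00927) or voom on estimated reads (0.00715), in TPM without mitochondrial genes (0.0124) and without replicate 3 of both groups (0.0474). Each of these settings also called more genes than the 579 of the fit as reported. The counts were 2215, 1735, 1743, 1853 of the 14681 tested with voom, 1700 and 1212, in the same order. Replicate 3, lowest in CXCL12 as in ACKR3 in both groups, was also highest in mitochondrial share. A link between these was not tested.

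In TPM the order of levels was the same in all 6 libraries, CXCR4 above ACKR3 above CXCL12, without overlap between the genes within a group. The place of CXCL12 depends on the gene lengths used, with 6077 bases of annotated exon against 2258 for ACKR3. In estimated reads, not scaled for length, CXCL12 was above ACKR3 in KD replicates 1 to 3 (865, 1098 and 1036 against 779, 780 and 874). A 2-sided exact permutation of the group labels gave p = 0.1 for each gene, the smallest p this design allows. Between libraries of the same number, the KD minus DE difference on the log2(TPM + 1) scale was -0.83, -1.26 and -0.87 for CXCR4, and -1.02, -1.11 and -0.95 for ACKR3. For CXCL12 it was 0.57, 0.48 and 0.48, so each gene differed in 1 direction in all of these.

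The balance between the receptors was then compared within each library, where a shift shared by all genes largely cancels. CXCR4 held 66.8%, 69.2% and 68.4% of the summed TPM of both receptors in DE replicates 1 to 3 and 69.7%, 67.1% and 69.6% in KD replicates 1 to 3. The ranges of the groups overlapped, while the summed TPM itself was 295 to 376 in DE and 158 to 202 in KD. The log2 ratio of CXCR4 to ACKR3 was 1.09 ± 0.0789 in DE and 1.13 ± 0.0984 in KD, and the difference of 0.04 was smaller than the spread between replicates (exact permutation test, 2-sided p = 0.5, adjusted over 3 ratios 0.5). Its sign turned without DE replicate 1, where it was -0.00291.

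The ligand was then set against each receptor, in TPM ratios whose size within a library also depends on the gene lengths used. CXCL12 TPM over CXCR4 TPM was 0.0664, 0.0754 and 0.0735 in DE replicates 1 to 3 and 0.179, 0.256 and 0.192 in KD replicates 1 to 3. Every KD library had a higher share of ligand than any DE library. The log2 ratio went from -3.73 ± 0.0948 to -2.23 ± 0.268, a difference of 1.5. For CXCL12 over ACKR3 the values were 0.134, 0.169 and 0.159 in DE and 0.413, 0.523 and 0.440 in KD, and the log2 ratio went from -2.64 ± 0.172 to -1.10 ± 0.171, a difference of 1.54. Each of these ratios had an exact permutation p of 0.1 (2-sided, 0.15 adjusted over the 3 ratios), which 3 against 3 libraries cannot go below. As the ligand was higher and both receptors lower in every KD library, the ratios had to separate and this p was fixed. Their differences combine the log2 changes of the single genes and are no test beyond those.

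**Figure D2:**
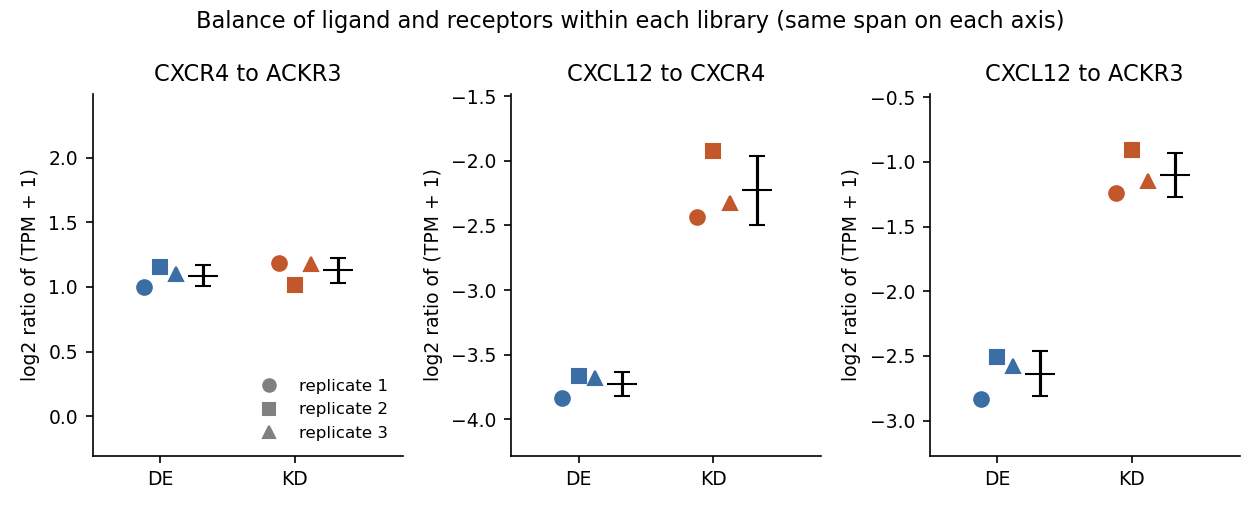
Log2 ratios of (TPM + 1) within each library for the pairs CXCR4 to ACKR3, CXCL12 to CXCR4 and CXCL12 to ACKR3, with the mean ± SD in black and the same span on each vertical axis. The DE and KD points mix for the receptor pair, and separate for both ligand-to-receptor pairs, by 1.5 and 1.54 in the mean. That separation follows from the values of the single genes.

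The log2 changes of the 3 genes kept their sign in all settings tried for the fit over all genes. CXCR4 lay between -1.11 and -0.92, ACKR3 between -1.15 and -0.94 and CXCL12 between 0.42 and 0.62 on the log2 scale when any 1 library was left out.

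**Figure D3:**
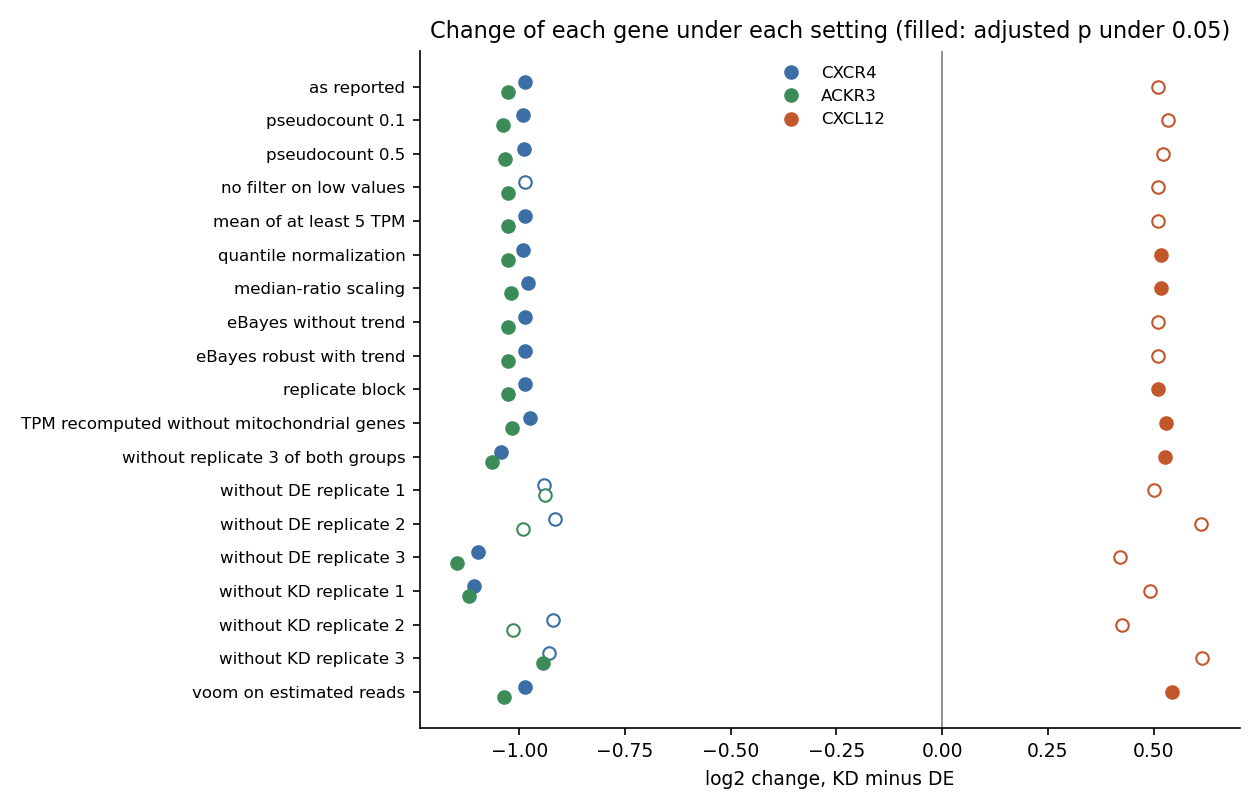
Log2 change (KD minus DE, horizontal axis) of CXCR4, ACKR3 and CXCL12 in the fit as reported and under each other setting (vertical axis), with filled points where the adjusted p was under 0.05. The points of each gene stay close together, near -1 for the receptors and 0.5 for the ligand, while which of them are filled varies with the setting.

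Among the other chemokine receptors, 0 of 21 listed genes reached 1 TPM in 3 libraries, so 0 were tested. The highest value in any library was 1.41 TPM, for CCR10. Of the receptors looked up, CXCR4 and ACKR3 alone lay above that level, in both groups.

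Of 42 other chemokine ligands, 6 passed the filter on low values, and 6 were listed at 0 in all libraries. Of the tested ones 1 fell and 0 rose, 1 passed with the replicate block, 3 with voom, and 4 had an unadjusted p under 0.05. The shares of all genes were 3.27%, 12.5%, 12.6% and 15.4%. The median log2 change was 0.46, with 4 positive. CXCL3, CXCL5 and CXCL16, higher in KD, met the filter through KD alone and did not pass (limma adjusted p = 0.0904, 0.327 and 0.170). The median and the count of positive changes thus depend on that filter and give no direction for the listed ligands. CCL2, a chemokine that attracts monocytes, fell from 50.9 ± 8.55 to 23.7 ± 2.46 TPM (log2 change -1.06, limma adjusted p = 0.0153). DE replicates 1 to 3 held 55.2, 41.02 and 56.4 TPM and KD replicates 1 to 3 held 23.8, 21.2 and 26.1 TPM, and the groups did not overlap. In TPM, CCL2 was thus above CXCL12 in every DE library, and in KD the ranges of these chemokines met. The call of CCL2 was lost without DE replicate 1 (limma adjusted p = 0.0877), and also without replicate 1 (0.0610) or 2 (0.0888) of KD. CCL26, an eotaxin, had 10.2 ± 2.37 and 10.2 ± 2.19 TPM, and CXCL14 1.85 ± 0.173 and 3.02 ± 0.509 TPM, and neither passed (limma adjusted p = 0.998 and 0.196). CXCL11, the other chemokine bound by ACKR3, was not tested, with means of 0.505 ± 0.341 and 0.537 ± 0.0636 TPM.

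For genes that act after the receptors, the counts stand beside the 3.27% called over all genes tested. By that test a list of this size with 0 or 1 call does not stand apart from that share. Other ways of testing gave more calls, printed for each list with their own shares, and no list was tested as a set. Of 17 tested G protein subunits and RGS genes, which shorten G protein signals, 1 rose and 0 fell, and 16 were not called. The 1 was RGS4, which went from 0.333 ± 0.128 to 1.85 ± 0.478 TPM (log2 change 1.09, limma adjusted p = 0.0406), a low level, and the call was lost in all 6 fits that left out 1 library (0.0562 to 0.183). RGS4 met the filter on low values through the KD libraries alone, so its place among the tested genes rests on the same difference. GNB1 (300 ± 27.6 and 276 ± 9.20 TPM) and GNG5 (291 ± 24.1 and 274 ± 16.8 TPM), subunits of the G protein beta-gamma dimer, did not pass. With the replicate block, 3 rose and 1 fell in this list, 4 passed with voom and 5 had an unadjusted limma p under 0.05. The shares of all genes tested in each way were 12.5%, 12.6% and 15.4%. The median log2 change of the list was -0.08, beside -0.01 over all genes tested.

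Of 16 genes for arrestins, receptor kinases and receptor trafficking, 0 passed by limma, 2 had an unadjusted p under 0.05, 1 passed with the replicate block and 2 of 14 with voom, beside 15.4%, 12.5% and 12.6% of all genes tested in each way. The median log2 change was 0.03. The arrestin ARRB1 had means of 95.7 ± 11.9 and 117 ± 4.20 TPM, and ARRB2, which both receptors recruit, had 38.3 ± 1.08 and 41.7 ± 4.78 TPM. GRK5, a kinase that phosphorylates activated receptors, had 1.85 ± 0.410 and 3.47 ± 0.487 TPM without overlap (limma adjusted p = 0.110, with the replicate block 0.0496). RAB7A, a GTPase of late endosomes, had 299 ± 7.17 and 287 ± 13.3 TPM.

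Of 20 genes of the migration machinery, 1 fell and 0 rose, and 19 were not called. The median log2 change was -0.01. ELMO1, which acts with DOCK proteins to activate RAC1, measured 37.8, 41.3 and 39.3 TPM in DE replicates 1 to 3 against 28.1, 27.8 and 27.7 TPM in KD replicates 1 to 3. The groups lay far apart for their spread, and ELMO1 fell by 0.49 on the log2 scale (limma adjusted p = 0.0357). Of the 6 fits that left out 1 library, the call held in 1, without DE replicate 3 (0.0428), and was lost in the others (up to 0.194). RHOA (742 ± 106 and 739.9 ± 69.7 TPM) and CDC42 (342 ± 39.5 and 306 ± 29.9 TPM), GTPases of the cytoskeleton, did not pass. With the replicate block 2 rose and 2 fell, 4 passed with voom and 4 had an unadjusted limma p under 0.05. The shares of all genes tested in each way were 12.5%, 12.6% and 15.4%.

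Of 13 tested partners and modifiers of the axis, 1 rose and 0 fell, and 12 were not called. The median log2 change was 0.17. MMP9, a secreted protease that can cleave CXCL12, measured 9.99, 9.80 and 7.95 TPM in DE replicates 1 to 3 against 23.9, 30.3 and 20.6 TPM in KD replicates 1 to 3. Each KD library was above each DE library, and MMP9 rose by 1.33 on the log2 scale (limma adjusted p = 0.0108). The call was lost without DE replicate 1 (0.0534). DPP4, a peptidase that also trims CXCL12, had 2.90 ± 1.30 and 2.82 ± 0.776 TPM, and ADM, the adrenomedullin peptide that ACKR3 takes up, 26.9 ± 7.24 and 25.7 ± 4.34 TPM. MMP14 (285 ± 30.8 and 244 ± 12.5 TPM) and HMGB1, which binds CXCL12 (245 ± 31.3 and 266 ± 17.3 TPM), did not pass. With the replicate block, 3 genes of this list rose, 3 passed with voom and 3 had an unadjusted limma p under 0.05. The shares of all genes tested in each way were 12.5%, 12.6% and 15.4%.

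**Figure D4:**
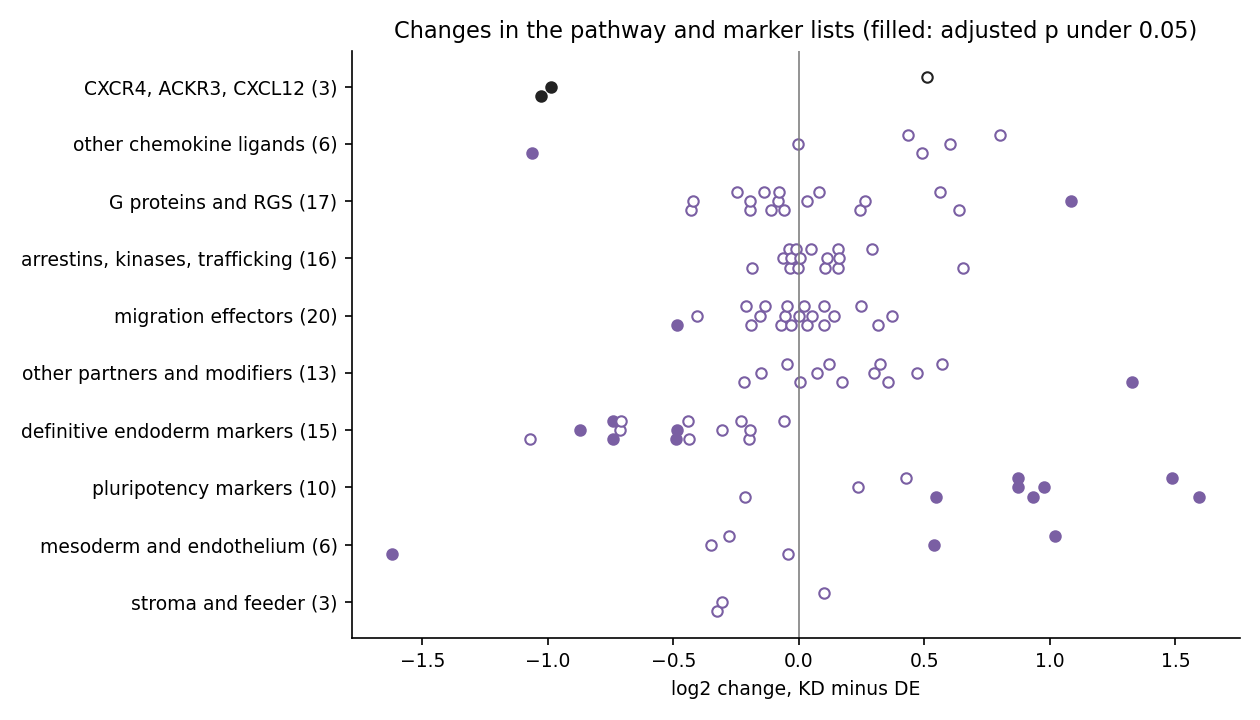
Log2 change (KD minus DE, horizontal axis) of each tested gene in the pathway and marker lists, with the number tested in brackets and filled points where the adjusted p was under 0.05. CXCR4 and ACKR3 lie at -0.99 and -1.03, most signalling and migration genes lie near 0, and the endoderm and pluripotency lists lie to opposite sides.

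In bulk RNA, fewer cells with a transcript and less of it per cell cannot be told apart, so marker genes of the cell types that the culture could hold were read beside the receptors. All 15 definitive endoderm markers passed the filter on low values, which 1 group alone can meet. FOXA1 passed through the DE libraries alone, with 1.37 ± 0.135 TPM in DE and 0.751 ± 0.122 TPM in KD, under 1 TPM in every KD library. Of the 15 markers, 5 fell and 0 rose, beside 3.27% called over all genes. The other 10 were not called, and the median log2 change was -0.49. With the replicate block 10 fell and 0 rose, and with voom 9 passed, beside 12.5% and 12.6% of all genes. Their summed level was 27375 to 31329.9 TPM in DE libraries and 20375 to 22226 TPM in KD libraries, most of it CER1, a secreted Nodal antagonist. The called genes were OTX2, FOXA2, GATA4, GSC and CER1. Without 1 library, OTX2 had a limma adjusted p of up to 0.0662, FOXA2 up to 0.0795 and GATA4 up to 0.0839, each lost without DE replicate 1 or KD replicate 2, while GSC (up to 0.161) held only without DE replicate 3 and CER1 (0.0544 to 0.200) in 0 of 6 fits. SOX17, the endoderm factor used together with CXCR4 to score differentiation, had 551 ± 115 and 265 ± 73.3 TPM (log2 change -1.07, limma adjusted p = 0.0530, and 0.00757 with the block). This was the largest drop in the list, whose median was -0.49, beside log2 changes of -0.99 and -1.03 for CXCR4 and ACKR3. KIT, another surface marker of these cells, had 121 ± 21.5 and 72.9 ± 9.70 TPM (limma adjusted p = 0.0633, with the block 0.00576). MIXL1 did not pass (log2 change -0.06).

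Pluripotency markers lay the other way, with 7 of 10 higher and 0 lower, beside 3.27% called over all genes, and a median log2 change of 0.87. With the replicate block 8 rose and 0 fell, and with voom 9 passed, beside 12.5% and 12.6% of all genes. Their summed level was 2205 to 2681 TPM in DE libraries and 3122 to 3493 TPM in KD libraries. THY1, DPPA2 and SOX2 held in all 6 fits without 1 library. POU5F1, a core factor of the pluripotent state, rose from 682 ± 78.3 to 1247 ± 105 TPM (limma adjusted p = 0.0131), and was lost without DE replicate 1 (0.0691), and also without replicate 1 (0.0527) or 2 (0.0777) of KD. TDGF1, a Nodal co-receptor, had 724 ± 56.5 and 624 ± 50.3 TPM and did not pass. The part of these shifts in the levels of CXCR4, ACKR3 and CXCL12 was not tested.

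Mesoderm, blood vessels and stroma are tissues in which the CXCL12 axis is also known to act. Of 15 mesoderm and endothelium markers 6 were tested, of which TBX5 and KDR rose and HAND1 fell, beside 3.27% called over all genes. With the replicate block 2 rose and 1 fell, and with voom 3 passed, beside 12.5% and 12.6% of all genes. The median log2 change of the 6 was -0.16, with 4 of them negative. The summed level of the listed markers was 125 to 163 TPM in DE libraries and 168 to 183 TPM in KD libraries, most of it KDR. TBX5 was lost without KD replicate 2 (0.0508) and HAND1 without DE replicate 1 (0.0717). KDR, a VEGF receptor, went from 83.9 ± 10.3 to 122 ± 3.53 TPM (limma adjusted p = 0.0484), and its call was lost in all 6 fits without 1 library (0.0512 to 0.206). The endothelial genes CDH5 and PECAM1 were at or below 0.181 TPM in every library. Of 11 stromal markers, cells of which are a usual source of CXCL12, 3 were tested, 0 passed by limma and 0 had an unadjusted p under 0.05 or passed with the replicate block or voom. Their summed level was 34.3 to 45.5 TPM in DE libraries and 30.8 to 43.6 TPM in KD libraries, most of it COL1A1 and COL1A2, and no marker of these lists was at 0 in all libraries.

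The genes with the most similar course over the 6 libraries were sought among 11741 genes with a mean of at least 5 TPM, by the root mean square difference between log2(TPM + 1) values after each gene was centred on its own mean. Among the closest to CXCR4 were LINC00261 (0.0465), the long noncoding RNA beside FOXA2, and FAM89A (0.0612). LINC00261 measured 38.5, 41.2 and 33.5 TPM in DE replicates 1 to 3 against 21.2, 16.9 and 17.7 TPM in KD replicates 1 to 3, the same order of libraries within each group as CXCR4. Among the closest to ACKR3 were DUSP4 (0.0643), a phosphatase of MAP kinases, and TMEM150C (0.0688). CXCR4 and ACKR3 differed from each other by 0.0755, so each took place 4 for the other. Closest to CXCL12 were BBS9 (0.0321), a BBSome subunit of cilia, MMP25 (0.0433), a membrane-anchored metalloproteinase, and RILP (0.0439), a partner of RAB7A. BBS9 measured 8.17, 9.50 and 6.82 TPM in DE replicates 1 to 3 against 12.5, 13.2 and 9.87 TPM in KD replicates 1 to 3, with replicate 2 highest and replicate 3 lowest in both groups, as for CXCL12. As these genes were picked for likeness over the same libraries, such matches in order follow largely from the choice.

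The nearest tested genes on the chromosome were also read. Of these 18 neighbours, 3 on each side of each member, 0 passed by limma, 3 had an unadjusted p under 0.05, 3 passed with the replicate block and 4 with voom, beside 15.4%, 12.5% and 12.6% of all genes. Untested genes were skipped, so their starts lay between 177 kb and 2387 kb from that of the member. The 3 that passed with the block were IQCA1, GBX2 and MCM6. Their log2 changes ran from -0.59 for IQCA1 to 0.65 for GBX2, both beside ACKR3 (limma adjusted p = 0.0669 and 0.0610, with the replicate block 0.0377 and 0.0328). MCM6, a replication helicase subunit beside CXCR4, had 362 ± 53.6 and 295 ± 29.8 TPM (log2 change -0.29, limma adjusted p = 0.380, and 0.0245 with the block). The log2 change of each neighbour was smaller in size than that of CXCR4 or ACKR3 in this fit, while those of IQCA1 and GBX2 were larger in size than that of CXCL12 (0.51).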

How the data were processed

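RNA-seq of 6 HuES8 libraries, 3 DE and 3 KD as the sample titles name them, was read from 1 table of TPM deposited by the authors, in which each column sums to 1000000. HISAT2 2.1.0, featureCounts, DESeq2 and GRCh38 are listed, without a role, per the submitters' processing notes. Annotation release, strand setting and filters: not given in the sources used here. Because TPM share 1 fixed sum, more mitochondrial RNA lowers all other values. All columns were mapped to samples.

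Genes that reached 1 TPM in 3 or more libraries were fitted as log2(TPM + 1) with limma 3.58.1 in R 4.3.3 (eBayes with trend, 2-sided, Benjamini-Hochberg over all 17711 genes, threshold 0.05), so fold changes of low genes are understated. The code was tested on simulated data. For 37138 rows whose symbol names a single GENCODE 29 gene, TPM times exon length gave reads in whole multiples of 1 constant per library (88.2% to 89% of values under 50 reads within 0.02 of a whole number, and 18 of 18 member values). Replicates of a group differed by more than sampling noise (chi-square per degree of freedom 3.87 to 38.03 on these reads).

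Same-numbered libraries correlated over genes at 0.108, 0.144 and 0.347 after removal of group means, all above 0.1, and were taken as pairs for the block. This rests on the data and not on a label, and without mitochondrial genes the first was 0.0973. An unmatched pair, DE replicate 2 and KD replicate 1, reached 0.121.

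The members and lists were chosen with earlier results of these data known. The rule allowed naming the members, up to 4 called genes of each list by p and up to 2 further genes by level, the 3 closest genes in course and 3 tested neighbours a side for each member, and GATA6-AS1 with GATA6. Not all of these are named: of the neighbours, those past the threshold with the block are, which was decided with their values known, and of the closest genes in course 1 is not reported here. ZFP42, NANOG and DPPA4, which complete the called pluripotency genes, are counted only. CCR10, CXCL3, CXCL5, CXCL11, CXCL16, ARRB2, GRK5, DPP4, ADM, FOXA1, SOX17, KIT, CDH5 and PECAM1 fall outside this rule and were picked with their values known. GRK2 and GRK3 were read under their older symbols. All else used Python 3.11.15, pandas 2.3.3, scipy 1.17.1 and, for plots, matplotlib 3.10.9. Alternatives were other pseudocounts (0.1 and 0.5), filters, scalings and variance models, the replicate block and leaving out each library. Leaving mitochondrial genes out of TPM, dropping replicate 3 from both groups and voom were added after the data were seen. Exact permutation tests of 3 against 3 values cannot go below 0.1.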

Additional observations from a re-analysis of the deposited data

How the results depend on the processing

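CXCR4, ACKR3 and CXCL12 kept their direction under all alternatives of the fit over all genes. CXCR4 did not pass with no filter on low values (log2 change -0.99, limma adjusted p = 0.0515), where more genes were tested. Leaving out 1 library gave -1.11 to -0.92 for CXCR4, -1.15 to -0.94 for ACKR3 and 0.42 to 0.62 for CXCL12, with limma adjusted p of 0.0168 to 0.0970, 0.0119 to 0.0874 and 0.125 to 0.429. CXCL12 passed under quantile normalization (0.52), median-ratio scaling (0.52), the replicate block (0.51), voom (0.54), without mitochondrial genes (0.53) and without replicate 3 of both groups (0.53). Each of these settings also called more genes than the fit as reported, as counted below. The replicate block kept the calls of CXCR4 and ACKR3. Paired exact permutation of the 3 ratios gave 0.75, 0.25 and 0.25, where 3 pairs cannot go below 0.25. Without single libraries the CXCR4 to ACKR3 difference was -0.00291 to 0.0966, that of CXCL12 to CXCR4 1.35 to 1.6 and that of CXCL12 to ACKR3 1.44 to 1.61.

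Genes called numbered 579, and 239 with no filter, 1735 with quantile normalization, 1743 with median-ratio scaling, 2215 with the replicate block, 1700 without mitochondrial genes, 1212 without replicate 3 of both groups, 1853 with voom and 87 to 610 without 1 library. Calls among other chemokine ligands (1) were 2 with median-ratio scaling or eBayes without trend, 3 with voom and 0 to 1 without 1 library. Those of G proteins and RGS (1) were 0 with a pseudocount of 0.1, no filter, a mean of 5 TPM or any 1 library left out, 2 without replicate 3 of both groups, 3 with quantile normalization, median-ratio scaling or no mitochondrial genes, and 4 with the replicate block or voom. Those of arrestins, kinases and trafficking (0) were 1 with the replicate block and 2 with quantile normalization, median-ratio scaling, no mitochondrial genes or voom. Those of migration effectors (1) were 0 with no filter or eBayes without trend, 3 with quantile normalization, median-ratio scaling or without replicate 3 of both groups, 4 with the replicate block, voom or no mitochondrial genes, and 0 to 2 without 1 library. Those of partners and modifiers (1) were 2 with median-ratio scaling, 3 with quantile normalization, the replicate block, voom or no mitochondrial genes, and 0 to 1 without 1 library. The causes were not tested.

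Without single libraries the share of calls that were higher in KD moved from 54.2% to between 40.7% (DE replicate 3) and 75.8% (DE replicate 1). The members had at least 582 estimated reads in every library, and a limit from depth was not tested.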
